A study of Mus musculus with 8 samples.

Results

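The genes described here encode the proteins of the mitochondrial ribosome. They were chosen by name, as every gene whose symbol begins with Mrpl (large subunit) or Mrps (small subunit) followed by a number and at most 1 letter, with a mean of at least 10 normalised reads. This gave 77 of the 20254 genes in the table, 48 of the large and 29 of the small subunit. The member means ran from 678 to 3354 normalised reads with a median of 1647, well above that minimum. Subunits with other names, such as Dap3, are treated apart.

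The study sequenced polyadenylated RNA of nephron progenitor cells, the cap mesenchyme cells of the embryonic kidney from which nephrons form. All 8 libraries came from kidneys of mice at embryonic day 17.5 that carried the Six2EGFPcre transgene, which makes a fluorescent Cre recombinase in cells that express Six2, and the cells were sorted by GFP. The 4 control libraries have the genotype VHLNP+/- and the 4 mutant libraries VHLNP-/-, that is, 1 or both Vhl alleles deleted in the progenitors. Controls were therefore not wild type: they carried the transgene and the heterozygous deletion. Cre activity followed Six2, so the deletion was limited to cells with a history of Six2 expression, and the sort selected on the same transgene. Whether each library stands for its own embryo, litter or pool is not in the labels, so a p-value here reflects only how far these 4 and 4 samples spread, part of which may be technical.

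Mitochondria hold a ribosome of their own, which translates the few messenger RNAs encoded by mitochondrial DNA into core subunits of the respiratory chain and the ATP synthase. Its ribosomal RNAs are made in the organelle, while all of its proteins are encoded in the nucleus, made in the cytosol and imported. The large subunit joins amino acids and passes the new chain through an exit tunnel to the inner membrane, and the small subunit binds and decodes the messenger RNA. The Vhl protein marks hypoxia-inducible factor (HIF) for destruction when oxygen is present, and HIF is known to shift cells from respiration towards glycolysis. How Vhl loss bears on the supply of mitochondrial ribosomal proteins in these cells is what the comparison below addresses, for transcripts only.

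By the test, 2 of the 77 genes were called lower in the mutants and 0 higher. That share is near the 3.03% of all genes tested that fell. The 2 genes were Mrps18b and Mrps2, both of the small subunit. The promoters of these genes are shown because they carry the only called differences among the members. Each is the 250 bases before the RefSeq start on the gene's strand (GRCm38.p6), at chr17:35916441-35916690 on the minus strand for Mrps18b and chr2:28467816-28468065 on the plus strand for Mrps2. Capitals mark matches to the motif letters searched, read on either strand.
Mrps18b: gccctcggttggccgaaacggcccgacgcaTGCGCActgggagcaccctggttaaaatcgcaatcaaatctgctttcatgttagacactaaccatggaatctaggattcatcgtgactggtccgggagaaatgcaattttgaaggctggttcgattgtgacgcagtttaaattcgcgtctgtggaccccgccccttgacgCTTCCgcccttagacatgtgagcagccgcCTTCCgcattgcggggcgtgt
Mrps2: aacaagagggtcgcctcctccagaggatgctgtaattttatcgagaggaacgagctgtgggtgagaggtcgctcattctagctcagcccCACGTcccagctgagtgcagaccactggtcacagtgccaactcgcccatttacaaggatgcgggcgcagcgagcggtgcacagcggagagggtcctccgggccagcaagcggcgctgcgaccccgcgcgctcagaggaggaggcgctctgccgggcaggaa

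The Mrps18b window holds the hexamer TGCGCA, the core of the site of NRF1 (a regulator of nuclear genes for mitochondria), and on the other strand 2 copies of GGAAG, the core of ETS factor sites such as that of GABPA. The Mrps2 window holds neither, and has ACGTG, the core of HIF sites, once on its other strand. Windows were found for 68 of the 77 members, 74 windows in all, 47 of the large and 27 of the small subunit. They were compared with the 32851 windows of the RefSeq table. TGCGCA stood in 21.3% of large-subunit windows and 29.6% of small-subunit windows, against 6.4% of all windows. The longer NRF1 motif with 1 free base stood in 19.1%, 3.7% and 3.7%, and the full one in 6.4%, 0% and 0.8%. GGAAG was as frequent in large-subunit windows (63.8%) as in all windows (64.1%) and stood in 81.5% of small-subunit windows, while CCGGAAGTG, which contains it, stood in 2.1%, 1.4% and 7.4% in the same order. ACGTG stood in 27.7% of large, 11.1% of small and 16.6% of all windows, and the E-box CACGTG, which contains it, in 12.8%, 3.7% and 6.0%. AAGATGGC, the core of YY1 sites, stood in 4.3% (2 windows), 7.4% (2 windows) and 1.6%. Its longer form stood in 0%, 3.7% (1 window) and 0.2%. In the small subunit CACGTG and the longer NRF1 motif each rest on 1 window, and ACGTG on 3. CCGGAAGTG stood in 1 large-subunit and 2 small-subunit windows, and the full NRF1 motif in 3 and 0. Shares from so few windows are not read as differences. The windows of all genes were not matched to the members for expression or base composition. The 17 members with TGCGCA had a median log2 fold change of -0.09 with 1 called lower, and the 51 members without it a median of -0.10 with 1 called lower. These are matches of letters in a fixed window and say nothing of binding.

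Depth ran from 37252683 to 46515762 gene-assigned reads per library, and the members had between 518 and 3840 reads in each library. Vhl checked the labels: it had 1134, 1379, 1208 and 1180 normalised reads in controls 1 to 4 and 320, 285, 331 and 336 in mutants 1 to 4, with no overlap (log2 fold change -1.94, SE 0.08, limma adjusted p = 4.22e-08; exact two-sided permutation p = 0.02857, the smallest that 70 relabellings of 4 against 4 libraries allow). All 7 nephron progenitor markers were detected, with summed levels of 61010 to 71270 in controls and 59700 to 69140 in mutants. Of these 7 markers 3 fell, against 3.03% of all genes tested, so the overlapping sums do not mean that the progenitor markers were unchanged. Markers of stroma summed to 22500 to 49550 in controls and 18840 to 39530 in mutants, and those of podocytes to 1710 to 7871 and 1099 to 2586, with 1 of 6 podocyte markers called lower. Endothelial, leukocyte, maturing tubule, ureteric bud and red cell markers had no call. No list had all mutants on 1 side of all controls, no marker found in the table was at 0 in all libraries, and the part of other cells in the results below was not tested.

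Across the family, values lay slightly lower in the mutants, by an amount that few single genes could resolve. At an adjusted p under 0.05 in a limma fit of all 15381 genes tested, 2 of the 77 members fell, 0 rose and 75 had no call. The share that fell is near the background, since 3.03% of all genes tested fell and 5.4% rose. Log2 fold changes (mutant minus control, computed on log2 of normalised reads plus 1) were below 0 in 72 members, or 93.5%, against 51.5% of all genes tested. Their median was -0.10, or -7.0%, against -0.01, or -0.5%, over all genes. Standard errors of single members were between 0.05 and 0.11 on the log2 scale, about the size of that median. At an unadjusted p under 0.05, 17 members (22.1%) were lower and 0 higher, against 11.2% of all genes lower. Every mutant library lay below every control library in 11 members, or 14.3%, against 6.72% of all genes. As the RNA is from sorted bulk cells, fewer cells of a type and less RNA per cell cannot be told apart.

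The subunits shared this pattern with small differences. The 48 large-subunit genes had a median log2 fold change of -0.10 (-6.6%), with 45 below 0 and a range from -0.25 for Mrpl35 to 0.05 for Mrpl27. The 29 small-subunit genes had a median of -0.13 (-8.5%), with 27 below 0 and a range from -0.35 for Mrps18b to 0.02 for Mrps33. Lower values at an unadjusted p under 0.05 were found for 5 large-subunit genes (10.4%, near the 11.2% of all genes) and 12 small-subunit genes (41.4%). The difference between the subunits was not tested. Without mutant 3, the lowest library, the large-subunit median was -0.06 and the small-subunit median -0.09, 61 members were below 0 and 10 members were lower at the unadjusted threshold, against 8.33% of all genes in that fit. Without control 1, the lowest control, that count was 33, against 14.3% of all genes, and without control 4 it was 11, against 8.66%.

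**Figure D1:**
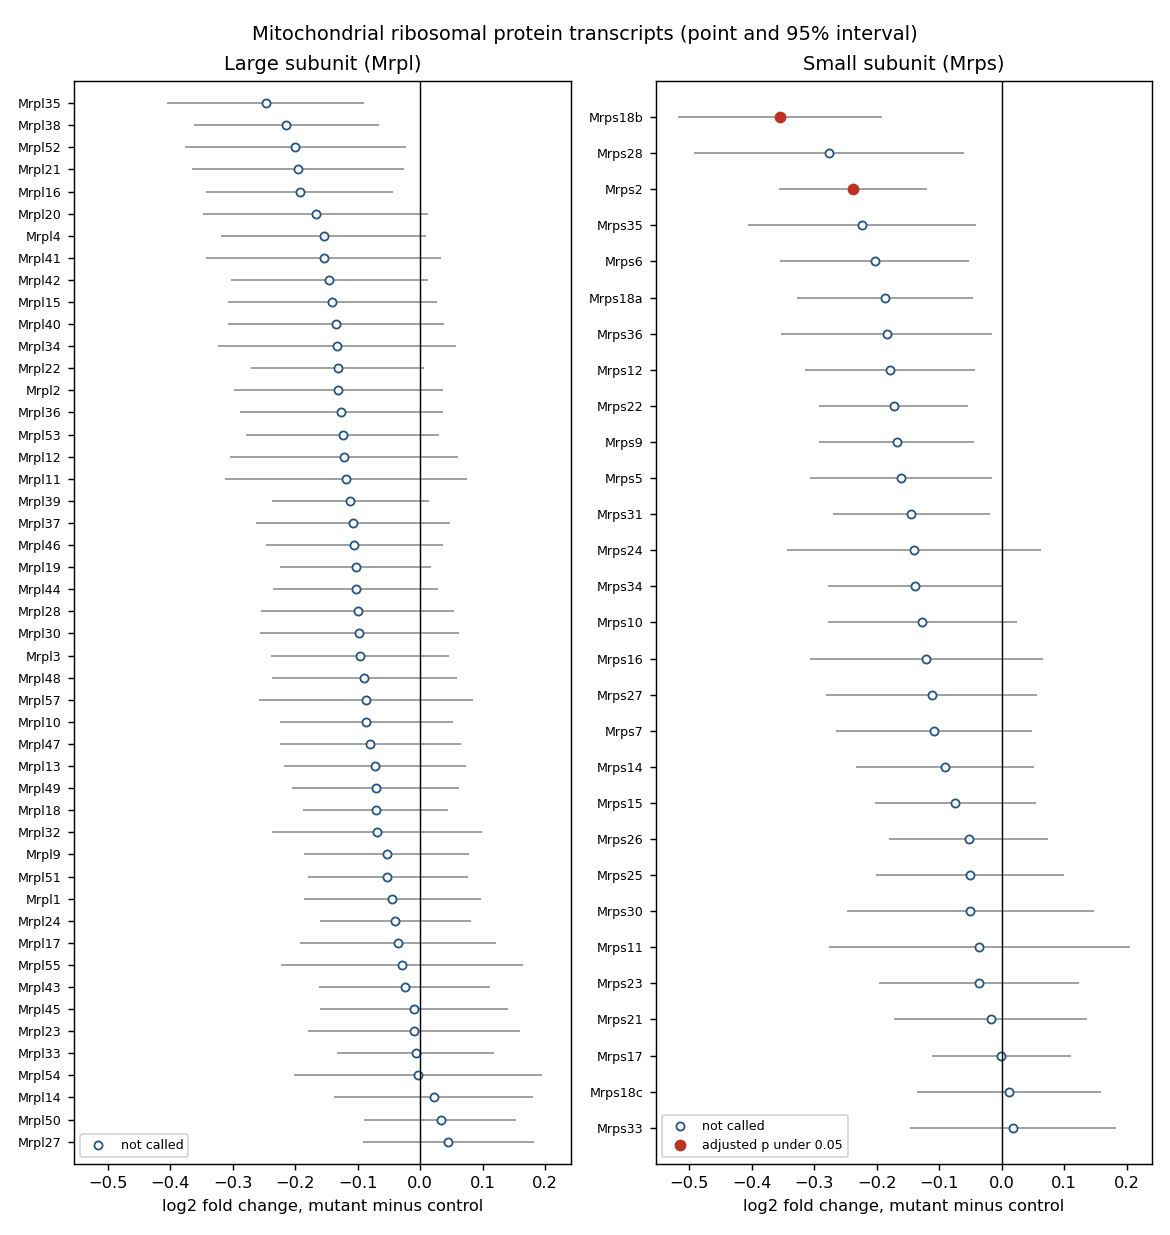
Log2 fold change of mutant over control for each of the 48 large-subunit and 29 small-subunit genes (points) with its 95% interval (lines), from the limma fit of 4 control and 4 mutant libraries. Points lie left of 0 in 72 of 77 genes, while only Mrps18b and Mrps2 (filled) had an adjusted p under 0.05.

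Mrps18b encodes one of the mitochondrial copies of the bacterial protein S18. The gene lies on chromosome 17 from 35910379 to 35916389 on the minus strand (GRCm38). It had 1147, 1123, 1262 and 1180 normalised reads in controls 1 to 4 and 989, 983, 820 and 899 in mutants 1 to 4. The groups did not overlap, and mutant 3 was the lowest library. The mean fell from 1178 ± 60.4 to 923 ± 79.7 (SD, n = 4 each), a log2 fold change of -0.35 (SE 0.07, 95% interval -0.52 to -0.19, limma adjusted p = 0.0126). With each library left out in turn its adjusted p stayed between 0.0135 and 0.0496. Its exons overlap an exon of Gm16279 on the other strand, and since it is not given whether counting used strand, reads of the pair cannot be told apart.

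Mrps2 encodes the homologue of bacterial S2, a protein at the junction of the head and body of the small subunit. It lies on chromosome 2 from 28468066 to 28471178 on the plus strand and overlaps no exon on the other strand. Controls 1 to 4 had 2333, 2281, 2530 and 2358 normalised reads and mutants 1 to 4 had 2054, 2056, 1925 and 2015. These groups did not overlap either, and the lowest control lay above the highest mutant by more than the SD within either group. The mean fell from 2376 ± 108 to 2012 ± 61.3 (SD, n = 4 each), a log2 fold change of -0.24 (SE 0.05, 95% interval -0.36 to -0.12, limma adjusted p = 0.0187). The call was lost without control 3 (adjusted p = 0.0503), control 4 (0.056), mutant 3 (0.0518) or mutant 4 (0.0619), with log2 values between -0.26 and -0.21 over all 8 such fits.

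The other S18 copies were not called. Mrps18c, the copy closest to the bacterial protein, had 906, 970, 942 and 1039 normalised reads in controls and 981, 988, 900 and 1018 in mutants. Its groups overlapped fully (log2 fold change 0.01, 95% interval -0.14 to 0.16, limma adjusted p = 0.947). Mrps18a, whose protein sits in the large subunit despite its name, had 1630, 1844, 1773 and 1764 in controls and 1522, 1580, 1415 and 1645 in mutants. Only mutant 4 reached above the lowest control, and the gene was not called (log2 fold change -0.19, SE 0.06, adjusted p = 0.105).

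Within libraries, the ratio of Mrps18b to Mrps18c was 1.27, 1.16, 1.34 and 1.14 in controls 1 to 4 and 1.01, 0.995, 0.912 and 0.883 in mutants 1 to 4. Every mutant ratio lay below every control ratio, and the scaling of a library cancels in it. The ratios of S18 copies are read as a description, since they were added later and those with Mrps18b rest on the same values as its call. Exact permutation tests of them gave adjusted p = 0.0429 for Mrps18b over Mrps18c and for Mrps18a over Mrps18c. For Mrps18b over Mrps18a the same test gave 0.0857, and none of these is used as support. For Mrps18a over Mrps18c the 4 controls had a ratio of 1.82 ± 0.092 and the 4 mutants one of 1.58 ± 0.029 (mean ± SD), again with no overlap. The ratio of Mrps18b to Mrps18a was 0.673 ± 0.047 and 0.599 ± 0.046, with overlapping groups. 

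Other small-subunit genes with small p-values were not called. Mrps22, a protein found only in mitochondrial ribosomes, had 1406, 1436, 1428 and 1445 normalised reads in controls and 1345, 1222, 1230 and 1275 in mutants (log2 fold change -0.17, SE 0.05, limma adjusted p = 0.0775). Its controls spread by an SD of only 16.5 and the groups did not overlap. Mrps9, the homologue of bacterial S9 in the head of the subunit, had 2180, 2392, 2295 and 2343 in controls and 2134, 2035, 1919 and 2112 in mutants (-0.17, adjusted p = 0.0979). The groups were separated by a narrow gap between control 1 and mutant 1. Mrps6, the homologue of S6, which binds S18 in bacteria, had 890, 950, 998 and 1000 in controls and 857, 856, 760 and 859 in mutants (-0.20, adjusted p = 0.0995). Mutant 3 stood apart from the other mutants, which were nearly equal. Mrps36 is named for the ribosome but its protein is a subunit of the oxoglutarate dehydrogenase complex of the citrate cycle, and its log2 fold change was -0.18 (adjusted p = 0.174) with overlapping groups. The annotation holds pseudogenes named after Mrps36, Mrpl23 and Mrpl48, so reads of these genes could be shared with them and their values are uncertain. Pseudogenes under other names were not searched.

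In the large subunit the lowest unadjusted p belonged to Mrpl35, the homologue of bacterial L35. It had 1341, 1493, 1435 and 1443 normalised reads in controls and 1313, 1142, 1089 and 1279 in mutants (log2 fold change -0.25, SE 0.07, limma adjusted p = 0.0599). No mutant reached the controls, although mutant 1 lay close below control 1. Mrpl38, of the central protuberance that contacts the small subunit, had 1962, 2150, 2159 and 2174 in controls and 1941, 1911, 1628 and 1810 in mutants (-0.21, SE 0.07, adjusted p = 0.0786). Here control 1 lay far below the other controls and just above mutant 1. Mrpl16, beside the site of peptide bond formation, had 977, 1034, 1132 and 1086 in controls and 966, 920, 860 and 953 in mutants (-0.19, adjusted p = 0.114), with no overlap but a gap smaller than the spread within groups. Mrpl21, Mrpl52 and Mrpl22 had log2 fold changes of -0.20, -0.20 and -0.13 (adjusted p = 0.156, 0.165 and 0.242), each with overlapping groups.

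By the authors' deposited table of DESeq2 results, 6 members fell and 0 rose at an adjusted p under 0.05, against 5.35% of its 15144 tested genes that fell. In the authors' deposited table Mrps18b had an adjusted p of 5.42e-04 and Mrps2 of 5.52e-04. The other 4 in the authors' deposited table were Mrpl35 (0.0241), Mrps22 (0.0333), Mrpl38 (0.0369) and Mrps9 (0.043), the same 4 that follow the called pair in the limma ranking. The log2 fold change of Mrpl35 in the authors' deposited table was -0.24.

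**Figure D2:**
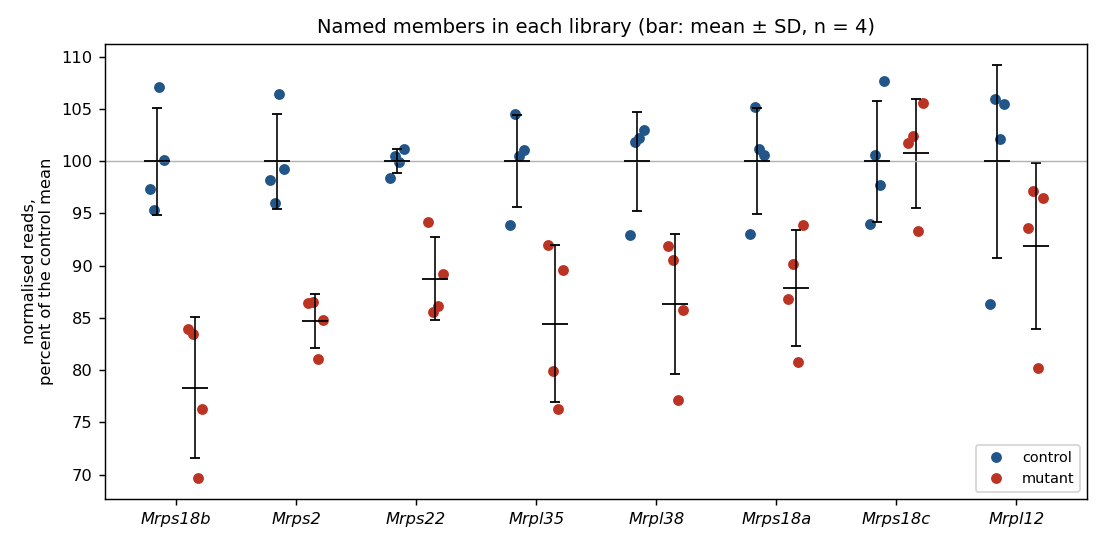
Normalised reads of 8 named members in each library, as percent of the gene's control mean (vertical axis). Points are the 4 control (blue) and 4 mutant (red) libraries and bars the mean ± SD. Mrps18b and Mrps2 had no overlap between groups, Mrps18c overlapped fully, and in Mrpl12 control 1 lay among the mutants.

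Grouped by place in the ribosome, no functional region of the large subunit was called in any member. The 3 stalk genes, whose proteins recruit translation factors, had a median log2 fold change of -0.12. Among them Mrpl12, which is also known to bind the mitochondrial RNA polymerase, had 3019, 3704, 3571 and 3689 normalised reads in controls and 3272, 3398, 2802 and 3374 in mutants (-0.12, 95% interval -0.30 to 0.06, limma adjusted p = 0.418). Mrpl10, which anchors Mrpl12, had -0.09 (adjusted p = 0.453). Control 1 lay among the mutants in Mrpl12, and in Mrpl10 it lay below mutants 1, 2 and 4. The exons of both genes overlap exons on the other strand.

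The 4 genes around the peptidyl transferase site (Mrpl2, Mrpl3, Mrpl4 and Mrpl16) had a median of -0.14, the 7 of the central protuberance -0.09 and the 6 at the tunnel exit -0.04. All 6 tunnel-exit genes were below 0, but the lowest reached only -0.13. Proteins with a bacterial counterpart and those found only in mitochondria had similar medians, -0.10 for 30 and -0.10 for 18 genes in the large subunit and -0.12 for 16 and -0.14 for 13 genes in the small subunit. The called pair was split between these classes. The regional differences were not tested.

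None of the most abundant transcripts per length was called. Levels were expressed as normalised reads per kb of the principal annotated transcript and averaged over the 8 libraries, with a range from 243 to 4492 in the large and 242 to 4144 in the small subunit. Mrpl52, Mrpl54 and Mrpl42, all without a bacterial counterpart, led the large subunit at 4492, 2953 and 2902 normalised reads per kb. Mrps21, Mrps33 and Mrps18a led the small subunit at 4144, 2104 and 1863. Of these, Mrpl54, Mrps21 and Mrps33 had log2 fold changes of 0.00, -0.02 and 0.02 with 95% intervals of -0.20 to 0.20, -0.17 to 0.14 and -0.15 to 0.18, and Mrpl42 had -0.15 (limma adjusted p = 0.252). The other 2, Mrpl52 and Mrps18a, had -0.20 and -0.19 and were lower at the unadjusted threshold (adjusted p = 0.165 and 0.105). The lowest levels per kb were those of Mrpl47, Mrpl1 and Mrpl57 (243, 299 and 314) and of Mrps25, Mrps26 and Mrps35 (242, 338 and 348). The annotated transcripts of these 6 genes are all longer than the member median of 1288 bases, and a shorter form in these cells would raise the value. Among them only Mrps35 was lower at the unadjusted threshold (-0.22, adjusted p = 0.134), and the other 5 lay between -0.09 and -0.04.

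Summed over each subunit, the groups overlapped. The large-subunit genes summed to 81344, 90304, 89199 and 90317 normalised reads in controls 1 to 4 and 85354, 84563, 75746 and 84029 in mutants 1 to 4. The small-subunit genes summed to 43261, 47836, 47773 and 47578 in controls and 44577, 44085, 39447 and 44177 in mutants. In both subunits controls 2 to 4 lay close together above all mutants, control 1 lay below most of the mutants and mutant 3 was the lowest library. As a share of the reads assigned to genes the large subunit took 0.209% ± 0.0061 in the 4 controls and 0.194% ± 0.0078 in the 4 mutants, and the small subunit 0.111% ± 0.0028 and 0.101% ± 0.0043 (mean ± SD). On this scale, which uses all reads in place of size factors, every mutant share lay below every control share.

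The balance of the subunits was described by the ratio of their sums, with no test. The ratio of the large to the small sum was 1.88, 1.89, 1.87 and 1.90 in controls and 1.91, 1.92, 1.92 and 1.90 in mutants, a mean of 1.88 ± 0.013 and 1.91 ± 0.008 (SD, n = 4 each). Groups did not overlap by this measure, but the gap was narrow, with the highest control at 1.8983 and the lowest mutant at 1.9021. They overlapped without Mrps18b and Mrps2 in the small sum (2.03 to 2.05 in controls and 2.04 to 2.06 in mutants). They also overlapped when subunits were set by the place of the proteins (2.19 to 2.24 in controls and 2.23 to 2.25 in mutants). There Mrps18a and Mrps30 were counted in the large subunit and Mrps36 was left out.

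The member levels moved together by library as well as by group. Mutant 3 was the lowest of all 8 libraries in 61 of 77 members (79.2%), against 20.9% of all genes tested, and control 1 the lowest control in 64 (83.1%), against 33.8%. The median deviation of large-subunit genes from their own mean over the libraries was -0.06, 0.08, 0.09 and 0.09 in controls 1 to 4 and 0.01, 0.00, -0.17 and -0.02 in mutants 1 to 4 on the log2 scale. That of all genes tested rounded to 0.00 or 0.01 in every library. Transcripts of the cytosolic ribosome and of respiratory complex I, read in the same way, were also lowest in control 1 among the controls and in mutant 3 among the mutants. The 77 cytosolic ribosomal protein genes had a median log2 fold change of -0.11 with 62 below 0 and 0 called, and their median deviation was -0.12 in control 1 and -0.19 in mutant 3. The 34 complex I genes had a median of -0.12 with 31 below 0, 1 called higher and 0 lower, and deviations of -0.08 and -0.22 in the same libraries. At an unadjusted p under 0.05, 17 of the 77 cytosolic genes (22.1%) and 9 of the 34 complex I genes (26.5%) were lower, beside 17 of 77 (22.1%) in the mitochondrial ribosome. The authors' deposited table called 5 cytosolic and 1 complex I gene lower, beside 6 members. Every mutant lay below every control in 0 genes of either list and in 11 members. None of these differences between lists was tested.

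**Figure D3:**
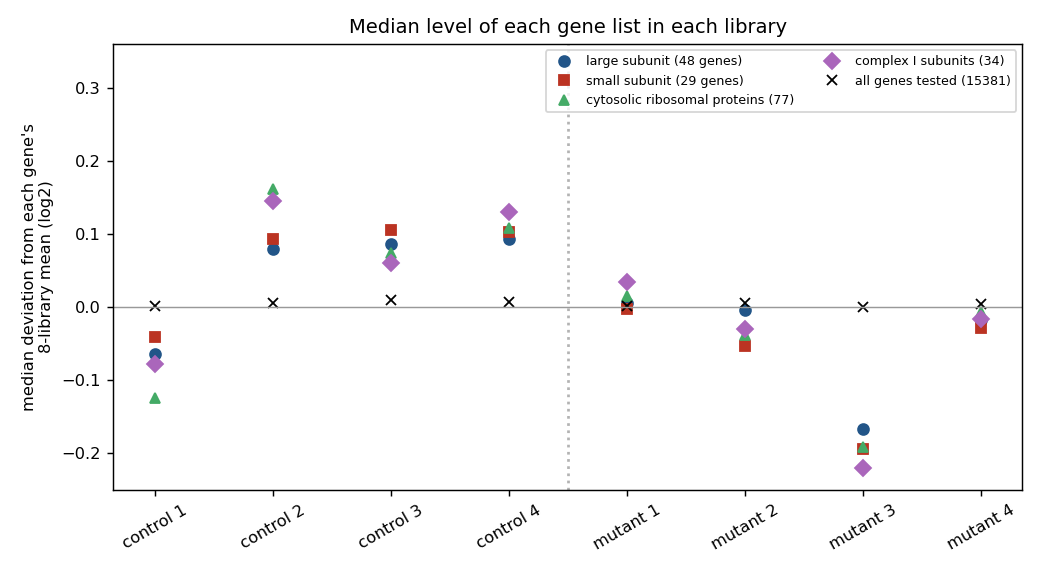
Median deviation of each gene list from its genes' means over the 8 libraries (vertical axis, log2), by library. In control 1 and mutant 3 both subunits of the mitochondrial ribosome, the cytosolic ribosomal proteins and complex I lay below 0, down to -0.22. The same lists also lay below 0 in mutants 2 and 4, down to -0.05 and -0.03. The median of all genes tested rounded to 0.00 or 0.01.

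Transcript length varied with the same libraries. Among protein-coding genes other than ribosomal and complex I genes, those with a principal transcript under 1 kb had a median deviation of -0.08 in control 1 and -0.10 in mutant 3, and those over 4 kb had 0.04 and 0.06. In the other 6 libraries the short genes lay between -0.02 and 0.07. Their log2 fold changes had a median of -0.03 under 1 kb and 0.01 over 4 kb. Members under 1 kb numbered 25 and had a median log2 fold change of -0.13, the 28 of 1 to 2 kb had -0.11, the 15 of 2 to 4 kb had -0.09, and the 9 over 4 kb also had -0.09. The part of transcript length, and of the stroma markers, which were highest in control 1 (49551 normalised reads, against 18836 to 39532 in the other libraries), was not tested.

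**Figure D4:**
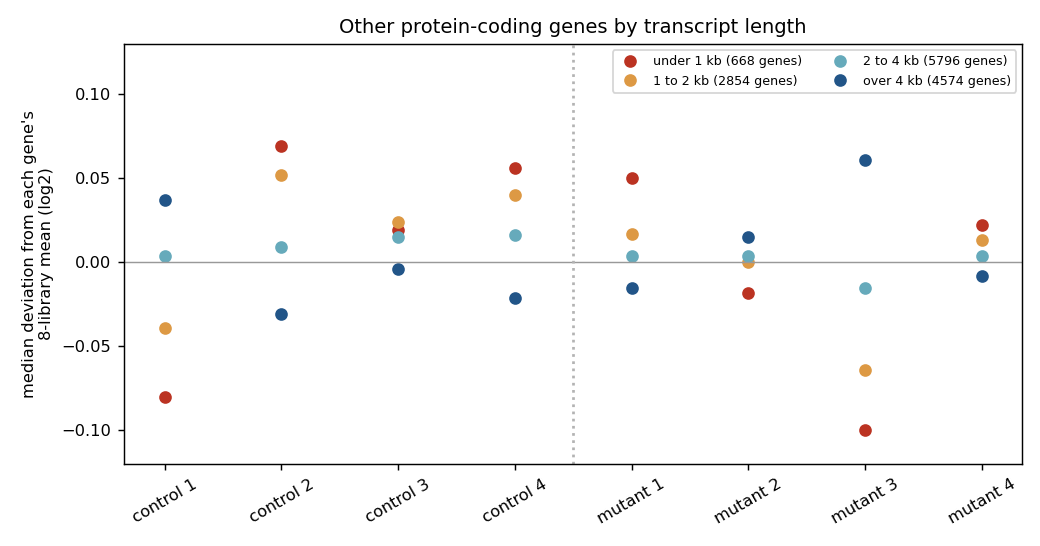
Median deviation from each gene's mean over the 8 libraries (vertical axis, log2) for protein-coding genes outside the ribosomal and complex I lists, in 4 classes of transcript length. Short genes (under 1 kb) were lowest and long genes (over 4 kb) highest in control 1 and mutant 3, at -0.08 and 0.04, and at -0.10 and 0.06.

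With both control 1 and mutant 3 left out, a choice made after seeing the data, 69 of 77 members were below 0. The medians were then -0.09 for the large and -0.11 for the small subunit, and Mrps18b and Mrps2 were the members called. At an unadjusted p under 0.05, 26 members were then lower, against 12.3% of all genes. Without control 1 alone 5 members fell, the called pair with Mrpl35, Mrpl38 and Mrps28, and without mutant 1 alone 6 fell, with Mrps35, Mrpl35, Mrpl52 and Mrps28 beside the pair. Over all genes, 1572 of 15285 were called in either direction without control 1 and 1299 of 15233 without mutant 1. With all libraries 1297 of 15381 were called. As the share that fell is not given for these fits, the added member calls are not read as particular to the family.

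Members free of overlap lay lower as well: 27 of the 77 overlap an exon on the other strand, and of the 50 that do not, 47 were below 0 with a median log2 fold change of -0.13.

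Genes that work with the mitochondrial ribosome were read from the same fit, in which 3.03% of all genes fell, 5.4% rose and 11.2% were lower at an unadjusted p under 0.05. With 0 or 1 gene called lower in each list, the counts are too small to be read as different from that background. Among 6 subunits with other names, 1 fell: Chchd1, a small-subunit protein, from 2187 ± 151 to 1777 ± 137 normalised reads (SD, n = 4 each, log2 fold change -0.30, limma adjusted p = 0.0249), with no overlap between groups. Ptcd3, another small-subunit protein, lay at 0.10 (adjusted p = 0.263). None of the 26 assembly and ribosomal RNA modification factors was called (4 were lower at an unadjusted p under 0.05, and the authors' deposited table also called 0), with a median of -0.08. The lowest p-values there were those of Mtg1, a GTPase of large-subunit assembly (-0.18, adjusted p = 0.157), and Rbfa, which acts on the small subunit (-0.20, adjusted p = 0.165).

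Of 14 translation factors 1 fell, Oxa1l, which inserts new chains into the inner membrane (-0.20, limma adjusted p = 0.0452), while the elongation factor Gfm1 was not called (-0.19, adjusted p = 0.114). Of 17 mitochondrial aminoacyl-tRNA synthetases 1 fell, Iars2, which charges isoleucine (-0.20, adjusted p = 0.0412), and Tars2, which charges threonine, was not called (-0.23, adjusted p = 0.0617). Of 19 genes of mitochondrial DNA expression 1 fell, Fastkd5, which processes mitochondrial messenger RNAs (-0.36, adjusted p = 0.0221). Polrmt, the mitochondrial RNA polymerase, was not called (-0.19, adjusted p = 0.232). Each of these lists had a median between -0.10 and -0.06. At an unadjusted p under 0.05, 3 translation factors (21.4%), 5 synthetases (29.4%) and 1 DNA expression gene (5.26%) were lower. The share of all genes was 11.2%, and the differences were not tested. The authors' deposited table called 1, 2 and 1 lower, against 5.35% of its tested genes, with Tars2 among them (DESeq2 adjusted p = 0.0218).

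Among 13 genes listed as regulators of mitochondrial biogenesis 2 rose and 1 fell, where 5.4% of all genes rose and 3.03% fell. The list was chosen with earlier results of these data known, so its counts say nothing of such regulators as a class. Mxi1, an antagonist of Myc, had 3518, 3406, 3806 and 3602 normalised reads in controls and 5345, 5360, 5244 and 5325 in mutants, a 1.49-fold rise (limma adjusted p = 2.95e-05). Lonp1, a protease of the mitochondrial matrix, had 6247 ± 414 in the 4 controls and 9297 ± 575 in the 4 mutants (mean ± SD), also a 1.49-fold rise (adjusted p = 2.25e-04). Both had groups far apart. Myc, a transcription factor that promotes ribosome and mitochondrial biogenesis, had 3278, 4314, 4216 and 4381 in controls and 3251, 2993, 3116 and 2462 in mutants (log2 fold change -0.45, SE 0.11, adjusted p = 0.0298). Control 1 was low for Myc too and lay just above mutant 1.

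Mxi1 and Lonp1 were called with each library left out. The calls of Oxa1l, Iars2 and Myc were each lost without any 1 of control 2, 3 or 4 or mutant 2, 3 or 4, with adjusted p-values up to 0.149, 0.127 and 0.0877. Chchd1 lost its call without control 2 or 4 or mutant 2, 3 or 4 (up to 0.0806), and Fastkd5 without control 4 or mutant 4 (up to 0.0719).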

How the data were processed

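RNA sequencing of 4 control and 4 mutant libraries was read from the deposited table of 20254 genes, with samples grouped by the genotype in the labels. The kit marks strand, per the labels' protocols. The authors used the mm10 assembly, DESeq2 1.18.1 and STAR 2.5.3a, per the submitters' processing notes. The counter, its annotation and its use of strand were not given in the sources used here. Each library's deposited signal is, per the file headers and the values, read counts divided by size factors, divided again by recycled factors and rounded. Both steps were undone: for all 20254 genes, whole reads were found that give the deposited mean (relative tolerance 1e-09). Values divided once are the normalised reads. The authors' deposited log2 fold changes and p-values (from their DESeq2 run, per the file headers) served as an alternative, and the deposited score (Wald statistic) was not used.

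Genes that reached 10 normalised reads in 4 or more libraries were compared on log2(value + 1) with limma 3.58.1 in R 4.3.3 (trend and robust variances, no covariate, two-sided, Benjamini-Hochberg over 15381 genes, called under 0.05). The test had been written for normalised values, and it was checked on simulated data. There genes varied independently, so the check does not cover shifts shared by the genes of a library. Named members are those called, the 6 smallest unadjusted p-values and the 3 highest and 3 lowest levels per kb in each subunit, the S18 copies, Mrpl10, Mrpl12 and Mrps36; from related lists, called genes and the 2 smallest p-values. The ratios of S18 copies were added later. Coordinates and principal transcripts come from GENCODE on GRCm38 (77 of 77 members matched), promoters from RefSeq GRCm38.p6. The members and lists were chosen with earlier results of these data known, and the count of TGCGCA was added last. Alternatives were other scalings, pseudocounts, filters, limma-voom, library weights, a replicate block and left-out libraries. Assigned reads per library were between 37252683 and 46515762, and what limits precision was not tested.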

Additional observations from a re-analysis of the deposited data

Results flagged for a closer look

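Within a group of 4 libraries, a value was picked out where the gap between the extreme library and its nearest neighbour was too large a share of the group's range by Dixon's 95% limit. Of 60 groups examined 7 met this, where chance alone gives about 1 in 20 groups, and they share libraries, so they are not independent. The summed large-subunit genes stood low in control 1 at 81340 normalised reads (the other controls lay between 89200 and 90320) and in mutant 3 at 75750 (others 84030 to 85350). The summed small-subunit genes did so in control 1 at 43260 (others 47580 to 47840) and in mutant 3 at 39450 (others 44080 to 44580). Among single genes Mrpl38 stood low in control 1 at 1962 (others 2150 to 2174). In mutant 3, Mrps6 stood low at 760 (others 855.9 to 858.6) and Mrpl10 at 2221 (others 2453 to 2500). All 7 lie on the low side, in the libraries in which short transcripts of other genes were low too. Whether these share a source was not tested.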

How the results depend on the processing

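The medians of both subunits stayed below 0 under every alternative run, from -0.136 to -0.059 for the large and -0.160 to -0.090 for the small subunit with 1 library left out, and 0 members were called higher. With 1 library left out, between 749 and 1572 of all genes, 0 to 2 large-subunit genes, 1 to 4 small-subunit genes and 2 to 8 genes of the related lists were called. Library quality weights called 2996 of all 15381 genes tested, in either direction, with 7 large-subunit and 10 small-subunit genes and 14 of the related lists. The larger member counts thus came with more calls across all genes. The authors' deposited table called 2 large-subunit and 4 small-subunit genes lower, against 5.35% of its 15144 tested genes. The deposited values taken as they are called 697 genes, 0 small-subunit genes and 3 of the related lists. With both control 3 and mutant 2 left out, these counts were 743, 1 and 3. The labels do not say whether replicate numbers pair the libraries. Correlations of deviations between same-numbered libraries were 0.213, -0.143, -0.144 and 0.063, and no library matched its own number best. With so few libraries these values cannot decide whether they were paired. A replicate block called 766 genes, 0 small-subunit genes and 2 of the related lists, with adjusted p = 0.0609 for Mrps18b and 0.102 for Mrps2. The cause of these moves was not tested, and fits with libraries left out also had fewer samples. Members near 0 changed sign without being called. With 1 library left out Mrps18c ran from -0.018 to 0.048, Mrps33 from -0.037 to 0.063, Mrpl54 from -0.064 to 0.068 and Mrps21 from -0.062 to 0.031. Mrps18c was also 0.00 with TMM factors, -0.009 with quality weights and -0.008 without control 3 and mutant 2, and Mrpl54 was 0.017 without control 1 and mutant 3. Oxa1l lost its call with TMM factors (adjusted p = 0.0502) and with no filter (0.0617), and Iars2 with no filter (0.0584). For named genes, 727 values kept direction and call, 53 lost and 25 gained a call. A planned edgeR fit was not run, because the deposited unit is a signal and not counts; limma-voom on the recovered reads called 1272 genes, with the same 2 members.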
